A study of Mus musculus with 12 samples.

Results

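The 40 genes described here are markers and effectors of the cell cycle: 18 that act in DNA replication or its licensing, and 22 that act in mitosis. The list was given by symbol, and each symbol matched 1 Ensembl gene through the GENCODE M21 annotation, out of 46078 genes in the files. All 40 members were among the 15823 genes with enough counts to be tested. Total RNA came from epithelium scraped off the proximal ileum of male C57BL/6 mice, for which the labels name no engineered allele. The mice were 28 days old at the start and 56 days old at the end, and received 7 oral gavages, 1 every 4 days, of sesame oil vehicle or of 3, 10 or 30 µg/kg TCDD in sesame oil. TCDD is a persistent chlorinated dioxin that activates the aryl hydrocarbon receptor, a transcription factor. Each of the 4 groups has 3 libraries, 12 in all. The labels do not say whether each library is a separate mouse, so p-values measure the spread between these libraries.

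A dividing cell copies its genome in S phase and separates the copies in mitosis. Origins of replication are licensed when CDC6 and CDT1 load the MCM helicase. Cyclin E with its kinase partner, under E2F transcription factors, then starts S phase, and CDC45 and the GINS complex turn the loaded helicase on. Cyclin A and cyclin B with CDK1 drive entry into mitosis, the spindle and its checkpoint align the chromosomes, and the anaphase-promoting complex ends mitosis by marking cyclin B and other proteins for destruction. In the small intestine division is restricted to the crypts, where stem cells and their transit-amplifying daughters cycle quickly, while the enterocytes, Paneth cells and other mature cells of the epithelium do not divide. Transcripts of this kind are therefore a small share of the RNA of a mucosal scraping.

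The promoters of these genes are shown first, because the motifs in them differ in frequency between replication and mitosis members. RefSeq windows of 300 bases, 250 before and 50 after the start of a gene in build GRCm38.p6, were found for 33 of the 40 members. Those of Ccne2, Mcm4, Gins1, Gins2, Ccna2, Aurkb and Tpx2 have no entry in the table. The windows were searched on both strands for 4 kinds of motif: the E2F type (TTTCCCGC, TTTCGCGC, TTTGCCGC or TTTGGCGC), the CHR or cell cycle homology region type (TTTGAA or TTTAAA), the CCAAT box (CCAAT), and the core of the dioxin response element (GCGTG). Matches of the same motif on opposite strands, or of different motifs, may share letters. Below are the last 160 bases before the start of 3 mitosis members and then of 2 replication members, 5′ to 3′ along the gene, with matches of the E2F, CHR and CCAAT kinds in capitals on either strand. The starts are those of RefSeq. They lay within 100 bases of the start of the GENCODE gene for 29 of the 33 members, and 134 to 1156 bases inside the GENCODE gene for Cdc6, E2f1, Mcm7 and Pcna. Of the stretches shown, those of Ube2c and Cdk1 run 31 and 26 bases into the GENCODE gene. The stretches were chosen to show mitosis promoters with CHR and CCAAT matches beside replication promoters with E2F matches.
Ube2c (chr2:164769769-164769928, plus strand): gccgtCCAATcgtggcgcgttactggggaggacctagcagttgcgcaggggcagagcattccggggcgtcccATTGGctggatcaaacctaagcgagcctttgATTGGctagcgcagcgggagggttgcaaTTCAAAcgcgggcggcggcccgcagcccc
Cdk1 (chr10:69352913-69353072, minus strand): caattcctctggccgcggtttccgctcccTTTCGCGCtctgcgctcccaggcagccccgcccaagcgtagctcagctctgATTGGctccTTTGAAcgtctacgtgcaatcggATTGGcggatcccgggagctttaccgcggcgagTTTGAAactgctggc
Plk1 (chr7:122159275-122159434, plus strand): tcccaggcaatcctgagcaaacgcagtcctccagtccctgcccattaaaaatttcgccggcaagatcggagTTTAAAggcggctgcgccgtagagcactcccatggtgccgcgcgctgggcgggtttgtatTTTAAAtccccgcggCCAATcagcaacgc
Mcm5 (chr8:75109349-75109508, plus strand): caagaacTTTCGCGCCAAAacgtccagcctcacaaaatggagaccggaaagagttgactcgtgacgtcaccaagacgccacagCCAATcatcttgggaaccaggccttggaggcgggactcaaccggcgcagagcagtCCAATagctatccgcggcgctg
Mcm6 (chr1:128359706-128359865, minus strand): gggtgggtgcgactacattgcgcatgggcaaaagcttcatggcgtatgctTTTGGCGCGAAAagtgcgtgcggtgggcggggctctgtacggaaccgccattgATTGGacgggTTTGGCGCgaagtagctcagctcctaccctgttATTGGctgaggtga

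CHR-type letters occurred in 17 of the 19 mitosis members with a window (89.5%), in 5 of the 14 replication members (35.7%) and in 30.6% of the 27025 genes in the table. The CCAAT box occurred in 17 of 19 mitosis members (89.5%), 9 of 14 replication members (64.3%) and 41.1% of all genes. E2F-type letters occurred in 6 of 14 replication members (42.9%), namely Cdc6, Cdt1, Mcm3, Mcm5, Mcm6 and Mcm7, against 2.6% of all genes, and in 1 mitosis member, Cdk1. The dioxin response element core was present in 7 of 14 replication and 13 of 19 mitosis members (68.4%), and in 35.2% of all genes. A match is a run of letters and not a binding site. In the stretches printed above, Ube2c carried 3 CCAAT boxes and 1 CHR match, and Mcm6 carried 3 E2F matches and 2 CCAAT boxes.

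Gene counts per library ran from 11695887 to 22180274. The count of a member in a library ran from 13 to 3916 with a median of 225, so every member was above the floor of 3 counts. Absorptive enterocyte markers summed to between 23069 and 34459 CPM (counts scaled to library size with TMM factors) in every library. As a check of the dosing, 0, 3 and 4 of the 4 receptor targets measured were called higher at 3, 10 and 30 µg/kg. Their median log2 changes were 0.57, 3.67 and 4.69. At 3 µg/kg they summed to 71.0 to 208 CPM, which overlapped with 63.2 to 72.7 in vehicle. Library 1 of the 3 µg/kg group stood apart in the genes described here: it was the lowest of all 12 libraries for 25 of the 40 members, among them 18 of 22 mitosis members. The share of all genes for which 1 library ranked lowest or highest, or lay beyond every vehicle library, was not counted here or below. Counts of members called, list medians at 3 µg/kg and the spread at that dose are given with and without library 1 of that group. In bulk tissue, fewer cells of a type and less RNA per cell cannot be told apart.

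In vehicle the members lay at low to moderate levels. Per kilobase of exon, the vehicle level of mitosis members had a median of 2.78 FPKM (counts scaled for exon length and library size) and that of replication members a median of 1.78. Mki67, which encodes the proliferation antigen Ki-67, was the highest at 12.2 FPKM ± 1.26 (SD, n = 3), followed by Top2a, the topoisomerase that untangles replicated DNA, at 7.99 ± 0.65. Ccnb2, Cdc20, Ccna2, Pcna, Ube2c and Mcm6 came next, between 6.24 and 5.05 FPKM, and neighbours among them differed by less than the sum of their SDs, which ran from 0.14 for Ccna2 to 1.05 for Mcm6. The lowest were Gins2 at 0.63 ± 0.08 and Gins1 at 0.69 ± 0.17 FPKM, both parts of the GINS complex, and Ccne1 at 0.80 ± 0.16. The vehicle libraries agreed closely for mitosis members, whose coefficient of variation across the 3 libraries had a median of 8.75%, against 14.2% for replication members. At 3 µg/kg the same medians were 41.4% and 26.5%, and they were 7.03% and 7.51% over the other 2 libraries without replicate 1.

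**Figure D1:**
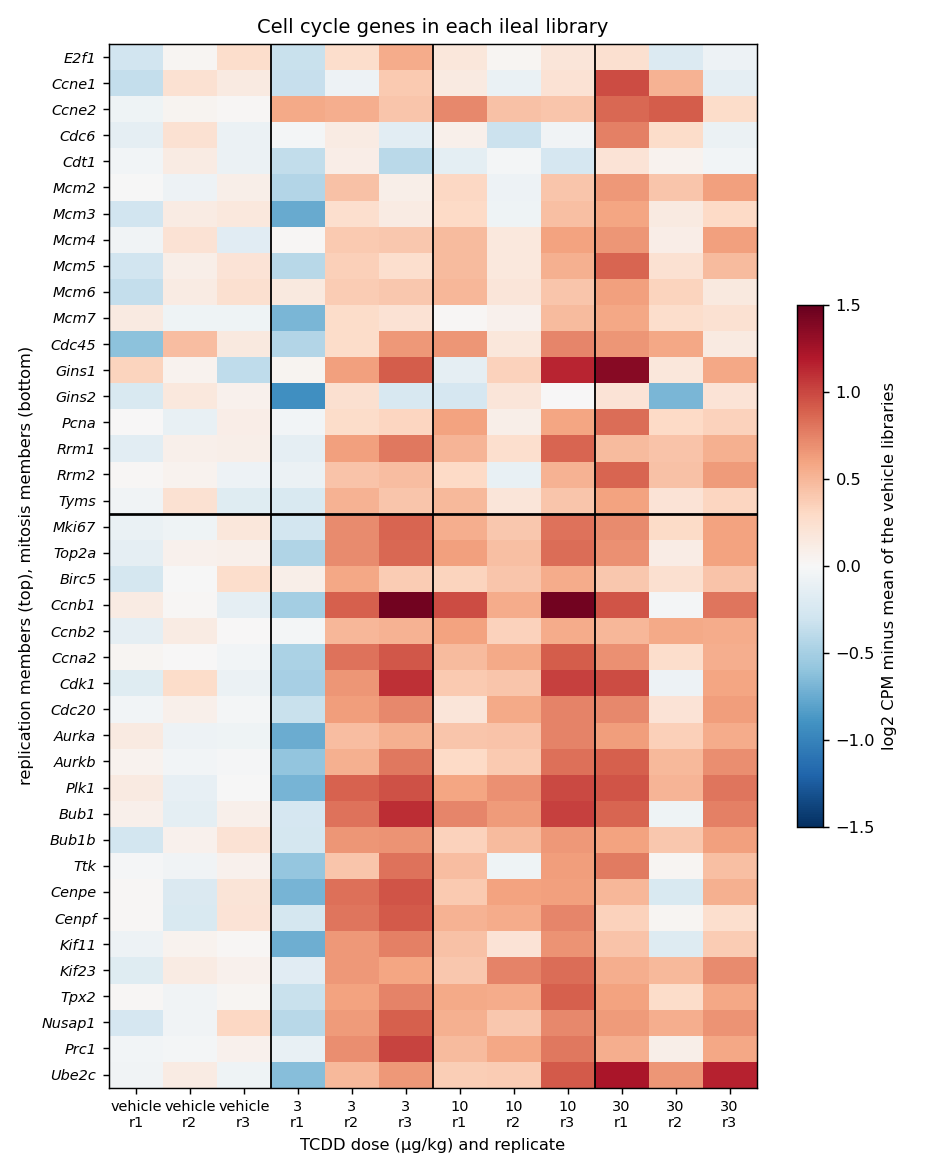
Log2 CPM of each member in each library (columns, 3 replicates per dose) minus the mean of the 3 vehicle libraries, with the 18 replication members above the line and the 22 mitosis members below it. Replicate 1 of 3 µg/kg is blue for most mitosis members, while the other treated libraries are mostly red.

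Each dose was compared with vehicle in edgeR's quasi-likelihood test with Benjamini-Hochberg adjustment over all genes tested, and calls required a change of at least 1.5-fold beside an adjusted p below 0.05. The 3 comparisons share the vehicle libraries. All 22 mitosis members had a positive log2 change at each of the 3 doses, with medians of 0.44, 0.59 and 0.53 at 3, 10 and 30 µg/kg, while the median over all genes tested was between -0.02 and 0.00. Replication members had medians of 0.18, 0.31 and 0.44, and 14, 15 and 16 of the 18 were positive. Replicate 1 of 30 µg/kg was the highest of the 12 libraries for 13 of them. The median log2 deviation of replication members from the vehicle mean was 0.65 in that library, against 0.27 and 0.28 in replicates 2 and 3. In the 10 µg/kg libraries it was 0.30, 0.12 and 0.43. Over all genes tested, the median deviation was -0.01, -0.01 and 0.00 in replicates 1, 2 and 3 of 30 µg/kg. Without 1 library, the list median at 30 µg/kg ranged from 0.27 to 0.51. The medians are descriptions with no test, and members share libraries and so are not independent. At 3 µg/kg, 0 of 40 members were called higher, where 0.0569% of all genes were, and 0 were called lower, where 0.171% were. At 10 µg/kg, 0 members were called higher, against 0.487% of all genes, and 0 lower, against 0.126%. Under an unadjusted p of 0.05, 8 members were higher at 3 µg/kg, against 6.48% of all genes, and 18 at 10 µg/kg, of which 14 were mitosis members, against 7.99% of all genes. None was lower at either dose, where 4.89% and 7.88% of all genes were. DESeq2 called 0 members at 3 µg/kg and 1 at 10 µg/kg, Kif23, beside 0.929% of all genes, while limma-voom called 0 at both.

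At 30 µg/kg 2 of the 40 members were called higher, Ccne2 and Ube2c, beside 3.08% of all genes called higher there. None was called lower, where 0.891% of all genes were, and 19 had an unadjusted p under 0.05, all higher, against 11.6% of all genes that were higher by that measure and 10.0% that were lower. Over the dose rank (0 for vehicle to 3 for 30 µg/kg), the slope was called for 1 member, Ube2c, against 2.53% of all genes called for a rise and 0.752% for a fall. Between 30 and 10 µg/kg no member was called higher or lower, where 2.17% and 0.607% of all genes were. In that last comparison 1 member had an unadjusted p under 0.05 by edgeR, against 11.1% of all genes higher and 9.94% lower, and DESeq2 and limma-voom called 0.

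**Figure D2:**
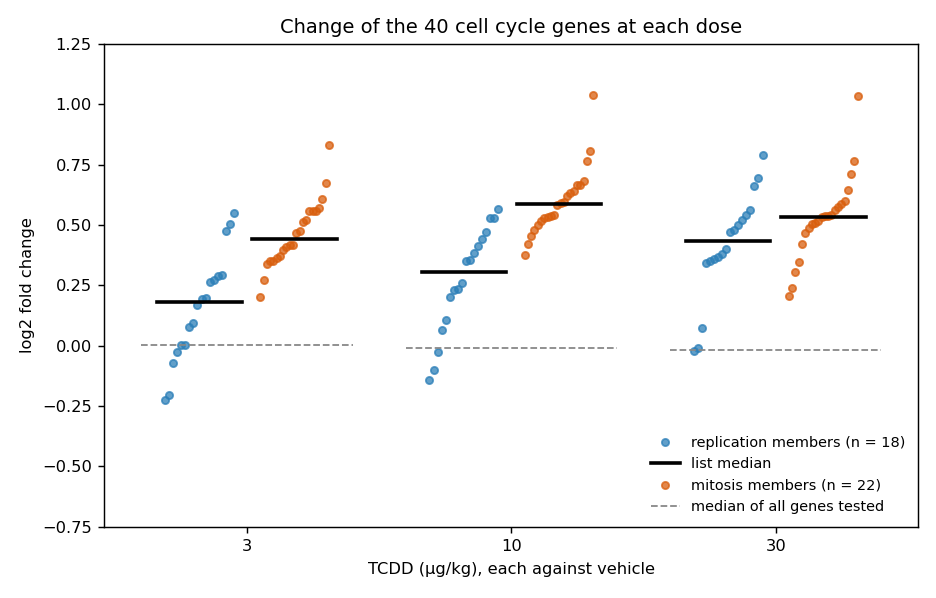
Log2 fold change of each member against vehicle at 3, 10 and 30 µg/kg, as points sorted by value within each list, with black bars for the list medians and a dashed line for the median of all genes tested. Mitosis medians stand at 0.44, 0.59 and 0.53 and replication medians at 0.18, 0.31 and 0.44.

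The list also shows how often the libraries of a dose lay wholly above those of vehicle. At 10 µg/kg this held for 21 of 22 mitosis members, all except Ttk, a checkpoint kinase, and for 2 of 18 replication members, Ccne2 and Rrm1, where 11.9% of all genes did the same. At 30 µg/kg it held for 14 mitosis and 7 replication members, against 14.2% of all genes. The mitosis members that overlapped with vehicle at 30 µg/kg were Birc5, Ccnb1, Cdk1, Bub1, Ttk, Cenpe, Cenpf and Kif11. At 3 µg/kg only Ccne2 among the 40 was wholly above vehicle, against 8.58% of all genes, and the 22 mitosis members all overlapped with it. Library by library, replicates 2 and 3 of 3 µg/kg each had all 22 mitosis members above every vehicle library, and replicate 1 had 0. Over all genes tested, the median log2 deviation from the vehicle mean was 0.00, 0.01 and 0.01 in replicates 1, 2 and 3 of that dose. Stromal markers were lower beside the mitosis genes at 10 µg/kg, where 5 smooth muscle markers summed to 18.6 to 29.8 CPM against 47.1 to 166 in vehicle and 5 fibroblast markers to 26.8 to 70.3 against 72.0 to 137. Their median log2 changes were -1.93 and -0.91, all 5 smooth muscle and 3 fibroblast markers lay wholly below vehicle, and 0 were called. Their part in the mitosis levels was not tested. From 10 to 30 µg/kg, 15 of 18 replication members had a positive change, with a median of 0.14. In the same comparison 14 of 22 mitosis members had a negative one, with a median of -0.07, and no member was called. The 35 other replication genes, described further on, had a median of 0.07 with 22 positive, and the 44 other mitosis genes -0.08 with 29 negative. Within the 30 µg/kg group, replicate 1 was the highest of the 12 libraries for 13 replication members. Replicate 2 was the lowest of its group for 32 of the 40 members. Its median log2 deviation of mitosis members from the vehicle mean was 0.25, against 0.66 and 0.59 in replicates 1 and 3.

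Among the genes of the G1/S switch, Ccne2 encodes cyclin E2, a regulatory subunit of the kinase that starts S phase (ENSMUSG00000028212, chromosome 4, 11191351 to 11204779). Its level was 4.74, 5.09 and 4.99 CPM in vehicle, 7.32, 7.18 and 6.58 at 3 µg/kg, then 8.14, 6.67 and 6.61 at 10 µg/kg and 8.94, 9.24 and 5.97 at 30 µg/kg. Every treated library was above every vehicle library, including replicate 1 of 3 µg/kg. With rising dose its log2 change against vehicle was 0.51 (SE 0.17), 0.53 (SE 0.18) and 0.70 (SE 0.17), and the edgeR adjusted p was 0.311, 0.183 and 0.035. The gene overlaps Ints8 on the other strand, whose level was higher and changed by -0.14 (SE 0.11) at 30 µg/kg, and the strand setting of the counting is not given in the sources used here. Leaving out any 1 of the 3 vehicle libraries, or replicate 2 of 10 µg/kg, or replicate 1 or 2 of 30 µg/kg, raised the adjusted p at 30 µg/kg above 0.05, to at most 0.126, as did fitting the compared groups alone (0.089) and a block for the library index (0.053).

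Ccne1 encodes the other cyclin E and had a lower level. Its values were 1.64, 2.45 and 2.31 CPM in vehicle, 1.66, 1.99 and 2.76 at 3 µg/kg, then 2.30, 1.96 and 2.45 at 10 µg/kg and 4.14, 3.02 and 1.92 at 30 µg/kg. Only 2 of the 30 µg/kg libraries exceeded vehicle, and the log2 change there was 0.50 (SE 0.30; edgeR adjusted p 0.363). It was 0.19 without replicate 1 of 30 µg/kg, 0.75 without replicate 3 of that group and 0.35 without vehicle replicate 1, and between 0.50 and 0.62 without any other library. E2f1, the founding member of the E2F family, had 2.26, 2.82 and 3.31 CPM in vehicle, 2.19, 3.33 and 4.05 at 3 µg/kg, then 3.10, 2.83 and 3.12 at 10 µg/kg and 3.27, 2.40 and 2.63 at 30 µg/kg. The groups overlapped at every dose and its change at 30 µg/kg was -0.01 (SE 0.25).

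Of the licensing genes, Cdc6 encodes the loader of the MCM helicase. It had 4.29, 5.51 and 4.41 CPM in vehicle, 4.603, 5.14 and 4.23 at 3 µg/kg, then 4.97, 3.77 and 4.53 at 10 µg/kg and 7.97, 5.69 and 4.43 at 30 µg/kg. Replicate 1 of 30 µg/kg was far above the rest, and the log2 change of 0.35 (SE 0.22; edgeR adjusted p 0.375) was not called. Without that library the change was 0.085, and without any other single library it was between 0.29 and 0.54, the upper end without replicate 3 of the group. Cdt1, its partner in loading, changed by 0.07 (SE 0.15) at 30 µg/kg. Mcm2, a helicase subunit, had 12.6, 12.0 and 13.6 CPM in vehicle, 9.36, 17.2 and 13.6 at 3 µg/kg, then 15.8, 12.1 and 17.0 at 10 µg/kg and 19.97, 17.0 and 19.4 at 30 µg/kg. All its 30 µg/kg libraries lay above vehicle, and the change there was 0.56 (SE 0.19; edgeR adjusted p 0.103). Mcm5, another subunit, had 11.3, 14.6 and 15.9 CPM in vehicle, 10.3, 17.7 and 16.4 at 3 µg/kg, then 19.2, 15.4 and 19.9 at 10 µg/kg and 25.3, 16.1 and 19.2 at 30 µg/kg. Its change at 30 µg/kg was 0.54 (SE 0.21; adjusted p 0.163), and the lowest library of that group lay close to the highest of vehicle. Mcm3, Mcm4, Mcm6 and Mcm7, the remaining subunits, changed by 0.34 to 0.48 at 30 µg/kg and none was called.

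The genes that start and feed the fork gave values of the same order. Pcna encodes the sliding clamp that holds the polymerase on DNA, and had 13.3, 12.2 and 14.1 CPM in vehicle, 12.8, 15.9 and 16.4 at 3 µg/kg, then 19.9, 14.003 and 19.8 at 10 µg/kg and 23.6, 16.3 and 16.7 at 30 µg/kg. Its log2 change was 0.19 (SE 0.18), 0.44 (SE 0.18) and 0.52 (SE 0.17; edgeR adjusted p 0.104) at the 3 doses. Rrm2, the regulated subunit of ribonucleotide reductase, which makes deoxynucleotides, had 11.3, 11.6 and 10.6 CPM in vehicle, 10.5, 15.1 and 15.4 at 3 µg/kg, then 13.8, 10.3 and 16.05 at 10 µg/kg and 20.4, 15.1 and 17.4 at 30 µg/kg. At 30 µg/kg all its libraries were above vehicle, and its change of 0.66 (SE 0.18) had an edgeR adjusted p of 0.0504, just outside the threshold. It was called in 6 of the 11 other settings run on all libraries. Rrm1, the large subunit, changed by 0.57 (SE 0.21) at 10 µg/kg and 0.47 (SE 0.21) at 30 µg/kg. Tyms, which makes thymidylate, changed by 0.38 (SE 0.19) at 30 µg/kg, and Cdc45, Gins1 and Gins2, which activate the helicase, by 0.40 (SE 0.31), 0.79 (SE 0.40) and -0.02 (SE 0.30).

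**Figure D3:**
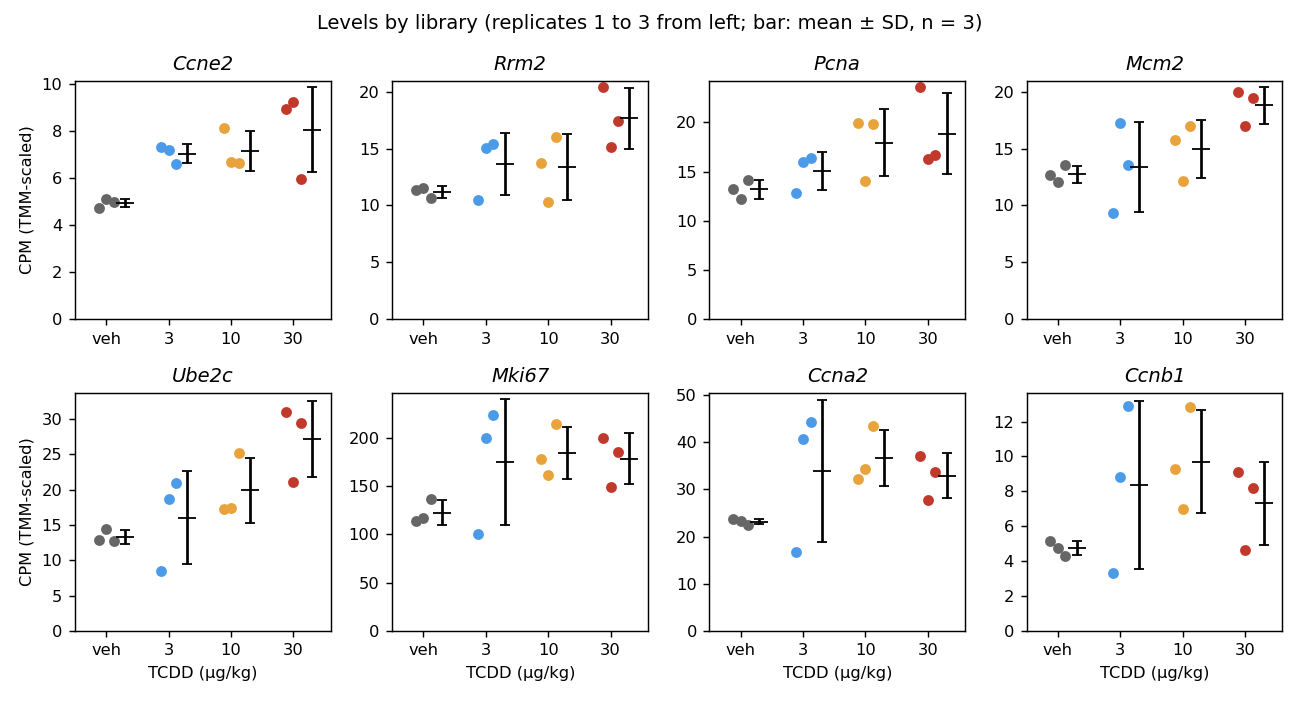
CPM of 4 replication members (top) and 4 mitosis members (bottom) in each library by TCDD dose, with replicates 1 to 3 from left to right and a bar for the mean and SD of the 3 libraries. Ccne2 and Ube2c, called at 30 µg/kg, have means of 8.05 and 27.2 CPM there against 4.94 and 13.3 in vehicle, and the leftmost point at 3 µg/kg is low in the bottom row.

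Of the mitosis members, Ube2c had the largest change at 30 µg/kg. It encodes a ubiquitin-conjugating enzyme of the anaphase-promoting complex (ENSMUSG00000001403, chromosome 2, 164769898 to 164778822), and its promoter is the first of those printed above. It had 12.8, 14.5 and 12.7 CPM in vehicle, 8.53, 18.6 and 20.9 at 3 µg/kg, then 17.2, 17.3 and 25.2 at 10 µg/kg and 31.0, 21.1 and 29.5 at 30 µg/kg. All libraries at 10 and 30 µg/kg were above vehicle, and replicate 1 of 3 µg/kg was below it. Its log2 changes at the 3 doses were 0.27, 0.58 and 1.03, each with SE 0.27, and that at 30 µg/kg had an edgeR adjusted p of 0.041. The fitted change over the whole dose rank was 1.03 (SE 0.24; adjusted p 0.025). The troponin gene Tnnc2 overlaps it on the other strand and held at most 2 counts in any library, against 113 to 607 for Ube2c. The call at 30 µg/kg was lost without any 1 of the 3 vehicle libraries, replicate 2 of 3 µg/kg, replicate 1 or 2 of 10 µg/kg, or replicate 1 or 3 of 30 µg/kg, with adjusted p up to 0.135, and also with the library index as a block (0.057) or with length and GC trends removed (0.061). The slope was lost without vehicle replicate 3 or replicate 1 or 3 of 30 µg/kg, with adjusted p up to 0.097.

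Next come the genes that drive mitotic entry. Ccna2 encodes cyclin A2, which acts in S phase and at mitotic entry, and had 23.6, 23.2 and 22.5 CPM in vehicle, 16.7, 40.8 and 44.3 at 3 µg/kg, then 32.3, 34.3 and 43.4 at 10 µg/kg and 37.2, 27.7 and 33.7 at 30 µg/kg. The vehicle libraries lay close together, 8 of the 9 treated libraries lay above them, and the log2 changes of 0.56 (SE 0.27), 0.67 (SE 0.27) and 0.51 (SE 0.27) had edgeR adjusted p of 0.459, 0.257 and 0.291. Ccnb1, which encodes cyclin B1, had 5.13, 4.77 and 4.31 CPM in vehicle, 3.32, 8.82 and 12.9 at 3 µg/kg, then 9.29, 6.97 and 12.9 at 10 µg/kg and 9.09, 4.62 and 8.21 at 30 µg/kg. It had the largest change of any member at 10 µg/kg, 1.04 (SE 0.39; adjusted p 0.232), and its groups at 3 µg/kg and vehicle overlapped. Cdk1, the kinase that cyclin B1 activates, had 6.15, 8.38 and 6.52 CPM in vehicle, 4.91, 11.04 and 14.9 at 3 µg/kg, then 9.15, 9.29 and 14.1 at 10 µg/kg and 13.7, 6.58 and 10.5 at 30 µg/kg. Replicate 2 of 30 µg/kg fell within the vehicle range for both Ccnb1 and Cdk1. Ccnb2, the other mitotic cyclin B, was steadier, and its change of 0.54 (SE 0.15) at 30 µg/kg, with an edgeR adjusted p of 0.0514 and under 1.5-fold, was the nearest to the threshold among mitosis members not called.

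Mki67 had 114, 117 and 137 CPM in vehicle, 101, 200 and 224 at 3 µg/kg, then 178, 162 and 214 at 10 µg/kg and 200, 149 and 186 at 30 µg/kg. All libraries at 10 and 30 µg/kg were above vehicle, and the log2 changes of 0.51, 0.59 and 0.54, each with SE 0.23, were not called (edgeR adjusted p 0.429, 0.248 and 0.196). Top2a had 65.3, 75.2 and 75.7 CPM in vehicle, 52.6, 118 and 130 at 3 µg/kg, then 110, 98.7 and 128 at 10 µg/kg and 116, 77.9 and 109 at 30 µg/kg. Its lowest library at 30 µg/kg lay just above the highest of vehicle, and the change there was 0.49 (SE 0.26; adjusted p 0.302). Plk1, a kinase of mitotic entry and spindle assembly, had 10.2, 8.52 and 9.25 CPM in vehicle, 5.74, 17.1 and 17.97 at 3 µg/kg, then 14.04, 14.9 and 18.4 at 10 µg/kg and 17.8, 13.2 and 16.2 at 30 µg/kg. Its change was 0.77 at both 10 and 30 µg/kg, each with SE 0.31, and the adjusted p was 0.256 and 0.166.

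Among spindle and cytokinesis genes at 30 µg/kg, Kif23, a motor of the central spindle, changed by 0.57 (SE 0.19), Nusap1 by 0.60 (SE 0.25), Tpx2 by 0.50 (SE 0.22), Prc1 by 0.42 (SE 0.22) and Kif11 by 0.24 (SE 0.29). The aurora kinases Aurka and Aurkb changed by 0.52 (SE 0.25) and 0.71 (SE 0.27), and Birc5, the survivin partner of Aurkb, by 0.35 (SE 0.15). For the checkpoint genes Bub1, Bub1b and Ttk and the checkpoint target Cdc20 the values were 0.59 (SE 0.30), 0.53 (SE 0.21), 0.47 (SE 0.30) and 0.54 (SE 0.24). The kinetochore genes Cenpe and Cenpf had 0.31 (SE 0.32) and 0.21 (SE 0.23) at 30 µg/kg but 0.53 (SE 0.32) and 0.60 (SE 0.23) at 10 µg/kg, and Cenpf had the smallest change of any mitosis member at 30 µg/kg. None of these genes was called between 10 and 30 µg/kg.

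The comparison at 3 µg/kg differed with and without its replicate 1. The median log2 deviation of the 22 mitosis members from the vehicle mean was -0.43 in that library, against 0.65 and 0.83 in the other 2 of its group, and 18 of the 22 lay below every vehicle library. Without it, the median log2 change of mitosis members at 3 µg/kg went from 0.44 to 0.72 and that of replication members from 0.18 to 0.33. The number of members called higher at 3 µg/kg then went from 0 to 12, against 0.639% of the genes tested in that fit. They were Mki67, Top2a, Ccna2, Plk1, Bub1b, Cenpe, Cenpf, Kif23, Tpx2, Nusap1 and Prc1 of the mitosis list and Rrm1 of the replication list, with log2 changes of 0.61 to 0.91. The lists of other genes moved in the same fit: the median at 3 µg/kg was 0.45 for the 35 other replication genes, with 1 called higher, 0.70 for the 44 other mitosis genes, with 15 called higher, and 0.28 for the 8 stem and crypt base markers, with 1 called higher. For 6 Paneth markers it was 0.93, with 5 called higher, and for the G1 and inhibitor lists described further on it was 0.05 and 0.02, with 0 called. Leaving the library out also narrowed the spread estimated over all groups (the SE of Plk1 at 30 µg/kg went from 0.31 to 0.14), and 8 members were called at 10 µg/kg, against 0.915% of all genes, and 6 at 30 µg/kg, against 3.68%. Those at 10 µg/kg were Mki67, Top2a, Ccna2, Plk1, Cenpf, Kif23, Tpx2 and Prc1, and those at 30 µg/kg were Ccne2, Rrm2, Aurkb, Plk1, Nusap1 and Ube2c. With 2 libraries left at 3 µg/kg and a library singled out after its values were seen, these counts stand beside the ones over all 12 libraries and do not replace them.

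**Figure D4:**
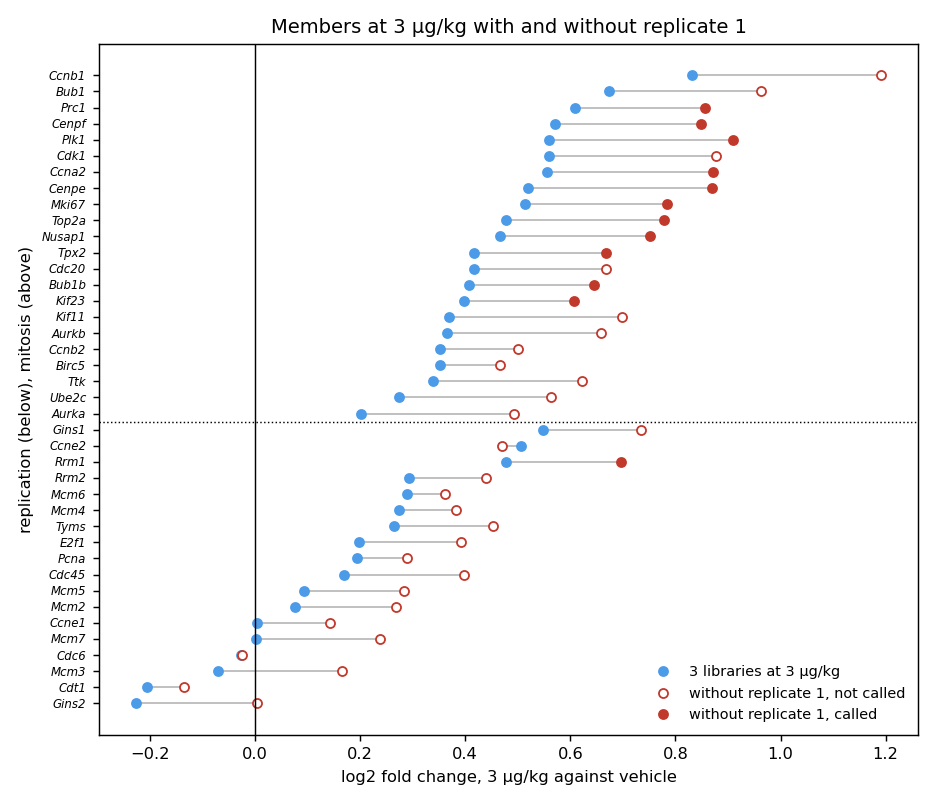
Log2 fold change at 3 µg/kg against vehicle for each member with all 3 libraries (blue) and without replicate 1 (red, filled where called), replication members below the dotted line and mitosis members above it. All mitosis members move to higher values, and 12 members in all become called.

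That library differed in other measured respects. The median log2 deviation from the vehicle mean was -0.59 for 8 stem and crypt base markers, the lowest of the 12 libraries, and 0.46 for 8 absorptive enterocyte markers, the highest. The medians for 5 smooth muscle and 5 fibroblast markers were -2.56 and -1.27, and 6 Paneth markers stood at -0.27 against 0.86 and 1.06 in the other libraries of its group. Its 4 receptor targets summed to 208 CPM, against 119 and 71.0 in replicates 2 and 3 and 63.2 to 72.7 in vehicle. The order differed by their median log2 deviation, which was 0.59 in replicate 1 against 0.84 and 0.14 in replicates 2 and 3. The library held 14509281 gene counts, within the range of the rest. The part of tissue composition in its low mitosis levels was not tested.

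Genes of the circadian clock divided the libraries as well. A clock score, the mean z score of 8 clock output and repressor genes minus that of 4 genes of the opposite phase, was positive in vehicle replicates 2 and 3, in replicate 1 of each of 3 and 10 µg/kg and in replicates 1 and 2 of 30 µg/kg, from 1.15 to 2.17. In the other 6 libraries it lay between -2.24 and -0.74. The mitosis medians were -0.43, 0.46, 0.66 and 0.25 in the treated libraries with a positive score, in the order of dose and replicate, and 0.65, 0.83, 0.46, 0.80 and 0.59 in those with a negative one. In vehicle they were -0.02 and 0.05 with a positive score and -0.04 with a negative one. With the score as a covariate the mitosis medians were 0.33, 0.47 and 0.53 at 3, 10 and 30 µg/kg, and 0, 0 and 3 members were called higher, those at 30 µg/kg being Ccne2, Rrm2 and Ube2c. In that fit 20, 95 and 628 of the 15823 genes were called higher at the 3 doses, the last being 3.97%. Wee1, which encodes the kinase that holds CDK1 inactive and was picked out after its values were seen, had 5.36 CPM in vehicle replicate 1 and 16.8 and 19.8 in the others, and across the treated libraries it had 17.98 to 19.99 with a positive score and 5.59 to 8.35 with a negative one.

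**Figure D5:**
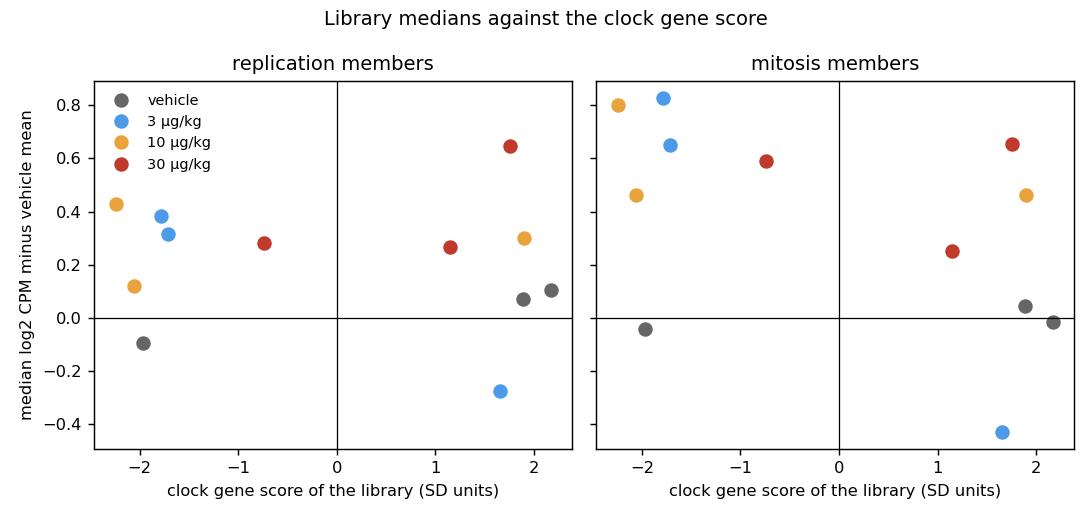
Median log2 CPM of the 18 replication members (left) and 22 mitosis members (right) minus the vehicle mean in each library, against the clock gene score of the library, coloured by dose. The 3 vehicle libraries lie near 0 on both sides of the score, and the 3 µg/kg library with a positive score is the lowest point in both panels.

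Other cell cycle genes, from lists written from textbook knowledge, gave medians like those of the members. For 35 other replication genes the median log2 change was 0.27, 0.40 and 0.37 at 3, 10 and 30 µg/kg, and for 44 other mitosis genes it was 0.42, 0.51 and 0.45. In each of these lists 1 gene was called higher at 30 µg/kg, where 3.08% of all genes were. None was called lower, where 0.891% of all genes were. Prim1, the catalytic subunit of primase, had 3.38 to 4.17 CPM in vehicle and 6.38 to 6.73 at 30 µg/kg, a change of 0.81 (SE 0.20; edgeR adjusted p 0.030). Kif15, a spindle motor, had 12.9 to 13.7 CPM in vehicle and 18.2 to 23.9 at 30 µg/kg, a change of 0.68 (SE 0.16; adjusted p 0.031). Both groups of libraries lay apart for these genes. Dnmt1, the maintenance DNA methyltransferase, chosen after its values were seen, changed by 0.54 (SE 0.14; adjusted p 0.047) and stayed under 1.5-fold.

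Genes of G1 control were counted apart from these. The 12 other G1 cyclin and kinase genes had medians of -0.02, 0.08 and 0.13, with 0 called against vehicle at any dose. Myc, a transcription factor of growth and proliferation in that list, was called between 30 and 10 µg/kg. It had 16.4, 20.1 and 16.1 CPM in vehicle, 8.75, 19.0 and 16.0 at 3 µg/kg, then 19.2, 13.5 and 14.3 at 10 µg/kg and 27.9, 31.1 and 31.2 at 30 µg/kg. The 30 µg/kg libraries were above all others, and the change was 0.94 (SE 0.22; edgeR adjusted p 0.034) against 10 µg/kg and 0.77 (SE 0.22; adjusted p 0.059) against vehicle. Of 14 inhibitors of cyclin-dependent kinases or of cell cycle entry, 13 could be tested and 0 were called at any dose, with medians of 0.10, 0.06 and 0.06. At 30 µg/kg 7 of the 13 had a positive log2 change and 6 a negative one, from -0.80 to 0.83. Cdkn1a, which encodes the inhibitor p21 and was chosen after its values were seen, had 203, 237 and 205 CPM in vehicle and 322, 332 and 295 at 30 µg/kg, a change of 0.56 (SE 0.11; adjusted p 0.011) that stayed under 1.5-fold.

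Markers of the crypt and of other cell types in the mucosa gave the following values. Of 8 stem and crypt base markers 1 was called at 30 µg/kg, Cdca7, a gene that also follows the cell cycle, at 13.8 to 13.9 CPM in vehicle and 22.3 to 24.0 at 30 µg/kg (log2 change 0.74, SE 0.17; edgeR adjusted p 0.020). The list median was 0.05, 0.00 and 0.30 at the 3 doses, and its summed level was 262 to 344 CPM in vehicle and 368 to 415 at 30 µg/kg. At 30 µg/kg 6 of the 8 had a positive log2 change and 2 a negative one, the lowest being -0.57. Of 6 Paneth markers 5 were called higher at 30 µg/kg, where the summed level was 2077 to 2797 CPM against 662 to 1003 in vehicle. They were Lyz1 (lysozyme), Mmp7 (matrilysin), Itln1 (intelectin), Ang4 (angiogenin 4) and Defa24 (a defensin), with log2 changes of 1.76, 1.30, 1.37, 2.33 and 1.57, and each lay wholly above vehicle. Germinal centre B cells also divide. The 5 of their markers that were tested summed to 29.5 to 39.0 CPM in vehicle and 21.8 to 36.4 at 30 µg/kg, with 0 called. All 5 had a negative log2 change there, with a median of -0.34. The 6 B and plasma cell markers summed to 107 to 302 CPM in vehicle and 105 to 127 at 30 µg/kg, also with 0 called. All 6 had a negative change there, with a median of -1.93. Of these, 5 had an unadjusted edgeR p under 0.05, where 10.0% of all genes were lower by that measure. The 5 smooth muscle markers summed to 47.1 to 166 CPM in vehicle and 29.7 to 105 at 30 µg/kg, and the 6 T cell markers to 148 to 175 and 192 to 232. Of the T cell markers 1 was called at 30 µg/kg, Cd3g, a chain of the T cell receptor complex, whose log2 change was 0.71 (SE 0.12) at an edgeR adjusted p of 0.0048. The part of these cell types in the levels of the 40 members was not tested.

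Several members could share reads with other genes. Apart from Ccne2 and Ube2c, 12 members overlap a gene on the opposite strand in the annotation, among them Mcm7, Mki67, Top2a and Plk1, and Pcna, Tyms, Ccnb1 and Ccnb2 have annotated pseudogenes. Their values carry that limit.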

How the data were processed

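The members, gene lists and alternatives were chosen with earlier results of these data known. The authors deposited unnormalised read counts for each Ensembl gene, with 1 library in each file. Total RNA had been converted to libraries with the NuGEN Ovation mouse kit and an added DNase step, per the labels. The submitters' processing notes name FastQC 0.11.3, Trimmomatic 0.33, TopHat2 2.1.0, SAMtools 1.2.0, HTSeq 0.6.1 and build GRCm38. The annotation release and the strand setting are not given in the sources used here. Entries for reads given to no gene, 60.3% to 64.6% of the reads of a library, were left out.

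Symbols and exon lengths came from GENCODE M21, which matched 45229 of 46078 identifiers. Replicates were numbered in accession order. Pairs of libraries within a group differed beyond sampling noise (chi-square per degree of freedom of 10.6 to 47.97). Counts were filtered with filterByExpr and scaled by TMM, and all 12 libraries in 4 groups entered a single quasi-likelihood fit in edgeR 4.0.16 (R 4.3.3). SEs were derived from the F statistic. Log2 CPM used a prior count of 2. Alternatives included limma 3.58.1 (voom) and DESeq2 1.42.0, other scalings, filters and covariates, and leaving out each library. The floor of 3 counts covers counting error only, while the SEs and SDs include the spread between libraries. The fit was tested on simulated data.

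All members are described. Values in every library are given for called members and for 14 listed by name whether called or not, and genes of other lists are named where called, at most 5 a list, or as chosen after their values were seen.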

Additional observations from a re-analysis of the deposited data

How the results depend on the processing

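The medians of the replication and mitosis members kept their sign at every dose in all 11 alternatives on all libraries and in all 12 fits that left out 1 library, and no call of a named member reversed direction. The median at 3 µg/kg ranged from 0.26 to 0.72 for mitosis and from 0.06 to 0.33 for replication members over the fits without 1 library. The number of members called higher was less stable. At 3 µg/kg it was 0 in every alternative on all libraries and ranged from 0 to 12 over the fits without 1 library. At 10 µg/kg it was 1 with DESeq2 and ranged from 0 to 8 over those fits, and the upper ends, 12 and 8, came without replicate 1 of 3 µg/kg. At 30 µg/kg it was 2 as reported, 3 with no filter on low counts, with at least 10 counts in every library, with DESeq2, with limma-voom and with the clock score as a covariate (Rrm2 beside Ccne2 and Ube2c), 4 when the compared groups were fitted alone, 1 with the library index as a block (Kif23) and 1 with the trends of exon length and GC content removed (Ccne2), and it ranged from 0 to 6 without 1 library. It was 0 there without any 1 of the vehicle libraries or without replicate 1 of 30 µg/kg. For the slope it was 1 as reported, 4 with DESeq2, 3 with the clock score as a covariate and 2 with length and GC trends removed, and ranged from 0 to 2 without 1 library, being 0 without vehicle replicate 3 or replicate 1 of 30 µg/kg and 2 without replicate 2 of 10 or of 30 µg/kg. Over all genes, 628 of 15823 were called higher or lower at 30 µg/kg as reported, 805 with DESeq2 and 673 with limma-voom. The number was 875 with the clock score, 482 with the index block, 516 with trends removed and 433 to 768 without 1 library. It was 787 of 28360 with no filter, 603 of 13002 with the 10-count filter and 573 of 15608 for groups fitted alone. For the slope it was 520 as reported, 722 with DESeq2, 716 with the clock score and 458 with trends removed. The cause of these changes was not tested. No member was called lower in any of these fits. No paired analysis was possible because the labels give no replicate numbers that tie libraries of different doses. The block above is the index that the file of each library carries, which runs in the same order as the accessions, and it is no stated pairing. The SE of the log2 change at 30 µg/kg was 0.40 for Gins1 and 0.30 for Gins2 and Ccne1, the members of lowest vehicle level per kilobase, and 0.15 for Ccnb2, though a larger SE also stood at higher levels, as for Plk1 (0.31).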
